A study of Homo sapiens with 5 samples.

Results

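The genes encoding subunits of the receptors for fast neurotransmitters, together with the metabotropic glutamate receptors, were examined in 501Mel melanoma cells and Hermes 3A melanocytes following lentiviral shBPTF silencing. BPTF is the largest subunit of the nucleosome remodeling factor NURF, and both lines carried the knockdown. The members are the protein-coding genes whose GENCODE 29 symbol begins with CHRNA, CHRNB, GABRA, GABRB, GABRG, GABRR, GLRA, GRIA, GRIK, GRIN1, GRIN2 or GRIN3, or with GRM and a digit. This rule gave 56 genes, of which 52 were among the 40263 genes listed in the count files. 501Mel is an established melanoma line that was grown in RPMI with fetal calf serum (n = 2 libraries). Hermes 3A is an untransformed human melanocyte line that was grown with TPA, cholera toxin, stem cell factor and endothelin-1 besides serum (n = 3 libraries), so that line and medium cannot be told apart. All cells were selected with puromycin at 3 µg/ml for 5 days. Libraries of cells without the knockdown were not analysed here. Every comparison is therefore between lines, and says nothing of the effect of silencing.

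Nicotinic acetylcholine, GABA-A and glycine receptors are pentamers of related subunits around a channel, cation-selective in the first family and chloride-selective in the others. AMPA, kainate and NMDA receptors are tetrameric cation channels opened by glutamate, and an NMDA receptor needs the GRIN1 subunit together with GRIN2 or GRIN3 subunits. The GRM genes encode glutamate receptors that signal through G proteins. These proteins are best known from synapses and, for CHRNA1 and CHRNB1, from the neuromuscular junction. Melanocytes arise from the neural crest, which also gives rise to peripheral neurons and glia.

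Promoter sequences were available for 40 of the 56 genes, including 7 of the 10 that differed between the lines. The windows of CHRNB2, CHRNA7 and GRIN2A are shown because these genes carried the clearest differences described below, and those of GRM2 and GRIA2 because they held parts of the RE1 element, the DNA sequence bound by the repressor REST. Each line gives the 250 bases before the start of the gene, 5′ to 3′ on the strand of the gene, from RefSeq on GRCh38.p14. Capitals mark a match to the E-box forms CACGTG and CATGTG, the kind of site that MITF and related factors recognise, or to the RE1 parts TTCAGCACC and GACAGCGCC, each searched on both strands.
CHRNB2, chr1:154567528-154567777, plus strand: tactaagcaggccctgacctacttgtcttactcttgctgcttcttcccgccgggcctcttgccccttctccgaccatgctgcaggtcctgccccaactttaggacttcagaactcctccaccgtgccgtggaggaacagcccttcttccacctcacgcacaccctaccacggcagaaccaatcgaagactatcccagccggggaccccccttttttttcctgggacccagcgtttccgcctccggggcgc
CHRNA7, chr15:32030233-32030482, plus strand: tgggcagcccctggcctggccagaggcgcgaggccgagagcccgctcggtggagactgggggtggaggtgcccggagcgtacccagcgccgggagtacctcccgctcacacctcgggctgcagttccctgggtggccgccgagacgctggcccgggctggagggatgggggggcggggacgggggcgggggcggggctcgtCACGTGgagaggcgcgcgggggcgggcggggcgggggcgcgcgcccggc
GRIN2A, chr16:10182068-10182317, minus strand: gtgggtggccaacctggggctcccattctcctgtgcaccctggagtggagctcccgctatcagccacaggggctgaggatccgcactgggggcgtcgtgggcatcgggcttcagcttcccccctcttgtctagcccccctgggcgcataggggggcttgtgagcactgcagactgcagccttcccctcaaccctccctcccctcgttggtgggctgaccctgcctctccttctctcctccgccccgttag
GRM2, chr3:51706818-51707067, plus strand: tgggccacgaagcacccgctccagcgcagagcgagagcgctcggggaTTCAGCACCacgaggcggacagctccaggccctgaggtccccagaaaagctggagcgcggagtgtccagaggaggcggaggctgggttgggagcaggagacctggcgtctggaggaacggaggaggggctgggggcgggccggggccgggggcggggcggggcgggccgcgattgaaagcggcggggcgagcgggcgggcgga
GRIA2, chr4:157220369-157220618, plus strand: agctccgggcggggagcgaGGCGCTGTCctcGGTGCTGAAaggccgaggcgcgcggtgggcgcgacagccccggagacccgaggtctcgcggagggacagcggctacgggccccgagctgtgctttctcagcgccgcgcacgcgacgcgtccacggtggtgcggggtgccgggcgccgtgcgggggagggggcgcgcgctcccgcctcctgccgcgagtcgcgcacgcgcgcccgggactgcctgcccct

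The CHRNA7 window held CACGTG with its first base at position -49 from the start. The window of a second RefSeq start of the gene held CACGTG at -81, and whether this is the same site was not checked. CACGTG was found in the windows (250 bases before to 50 after the start) of 8.77% of 27305 genes, and in those of CHRNA7, GRM4 and GRM5 among the members. CATGTG was found in 13.4% of all genes and in 7 members, none of them a gene that differed between the lines. The left part of RE1 stood at -203 in GRM2 and, on the opposite strand, at -219 in GRIA2, where the right part followed at -231 with 3 bases between them. These parts occurred in 0.469% and 0.692% of all genes, and GRIA2, which has 3 windows in the table, was the only member with both. The windows of CHRNB2 and GRIN2A held none of these letters. The G and C content was 60.4% for CHRNB2, 80.4% for CHRNA7, 74.4% for GRM2 and 66.8% for GRIN2A, against a median of 58.0% over all genes. A match is a description of these letters, and binding was not measured.

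The libraries held 37856675 to 43032311 counts in 501Mel cells against 30073071 to 41653084 in Hermes 3A cells, at which 3 counts correspond to 0.0697 to 0.0998 CPM, the unit of counts scaled to equal library totals. Nothing in the labels says that replicates came from separate cultures, and p-values then measure only the spread between these libraries, which may be technical. The paper lists 2 shBPTF constructs, and which of them each library carried is not given in the sources used here. BPTF itself reached 61.8 ± 5.65 CPM (SD, n = 2) in 501Mel cells and 50.5 ± 4.3 CPM (SD, n = 3) in Hermes 3A cells, and without controls this does not check the knockdown. The melanocyte identity of both lines was seen in their markers, with all 7 of MITF, DCT, TYR, TYRP1, PMEL, MLANA and SOX10 at 1 CPM or more in every library. Their summed level was 12700 to 19700 CPM in 501Mel cells and 31700 to 32700 CPM in Hermes 3A cells. The single markers did not all follow this sum. By the test between lines described below, 4 of the 7 were higher in Hermes 3A cells and 2 were not called. The remaining 1, DCT, was higher in 501Mel cells, with means of 1180 against 9.76 CPM. Of the neuronal markers RBFOX3, MAP2, TUBB3, NEFL, SNAP25, SYP and SYT1, 4 of 7 reached 1 CPM in every library of each line, with sums of 150 to 212 and 84.4 to 173 CPM, and NEFL had no row. SYP took the largest part of the 501Mel sums, at a mean of 122 against 57.5 CPM, and was not called. TUBB3, the 1 neuronal marker called, was higher in Hermes 3A cells (2.65 against 33.3 CPM). The fibroblast list (COL1A1, COL1A2, PDGFRB, DCN, LUM) summed to 3.35 to 15.4 and 77.6 to 189 CPM. In every library of each line 1 of 5 fibroblast markers reached 1 CPM, LUM in 501Mel cells and COL1A2 in Hermes 3A cells. COL1A2 made up nearly all of the Hermes 3A sums, at 69.5, 180 and 187 CPM against 0.0697 and 0.106 CPM. COL1A1, LUM and DCN had higher means in 501Mel cells (3.63 against 0.68, 5.33 against 3.15 and 0.134 against 0.0434 CPM). PDGFRB was low in both lines (0.167 against 0.185 CPM). For the keratinocyte list (KRT1, KRT5, KRT10, KRT14, TP63, DSG3) the sums were 32.9 to 34.3 and 43.9 to 48.2 CPM, nearly all from KRT10. For the muscle list (MYOD1, MYOG, DES, ACTA1, MYH3) they were 5.83 to 7.21 and 0.831 to 1.85 CPM, and MYOD1 and MYOG had no row. Their part in the results on receptor subunits was not tested.

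Detection of the receptor subunit genes varied widely. With detection set at 10 counts in every library of a line, 23 of the 56 genes were detected in 501Mel cells against 15 in Hermes 3A cells, with 14 shared, 9 detected only in 501Mel cells (GABRA3 of these with no row in the Hermes 3A files) and GRIN2A detected only in Hermes 3A cells. The rule must hold in 2 libraries of 501Mel cells but in 3 of Hermes 3A cells, so it is stricter for Hermes 3A cells. GABRB2 counts as detected only in 501Mel cells at 20 and 15 counts against 33, 16 and 7. Its mean was nevertheless 0.43 CPM there against 0.472 CPM in Hermes 3A cells. The share of all genes detected by this rule is not given here, so these numbers are not a result about the members. The other 32 genes passed in neither line. Of these, 22 were among the 44 with a row in both lines' files, and 10 lacked a row in at least 1 line. CHRNB3 had 0 counts in all 5 libraries, which allows up to 3 counts in each. Because the 2 lines' files list different genes, 44 members had a row in both, 7 only in the 501Mel files, 1 (GABRR3) only in the Hermes 3A files, and CHRNA2, GABRA4, GABRA6 and GRIN2B in neither, and a missing row is not a count of 0. Of the 44, 29 had enough counts to be tested, and the 15 others had at most 28 counts in any library. The counts of all members summed to 312 and 188 CPM in the 501Mel libraries and to 137, 108 and 112 CPM in the Hermes 3A libraries.

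**Figure D1:**
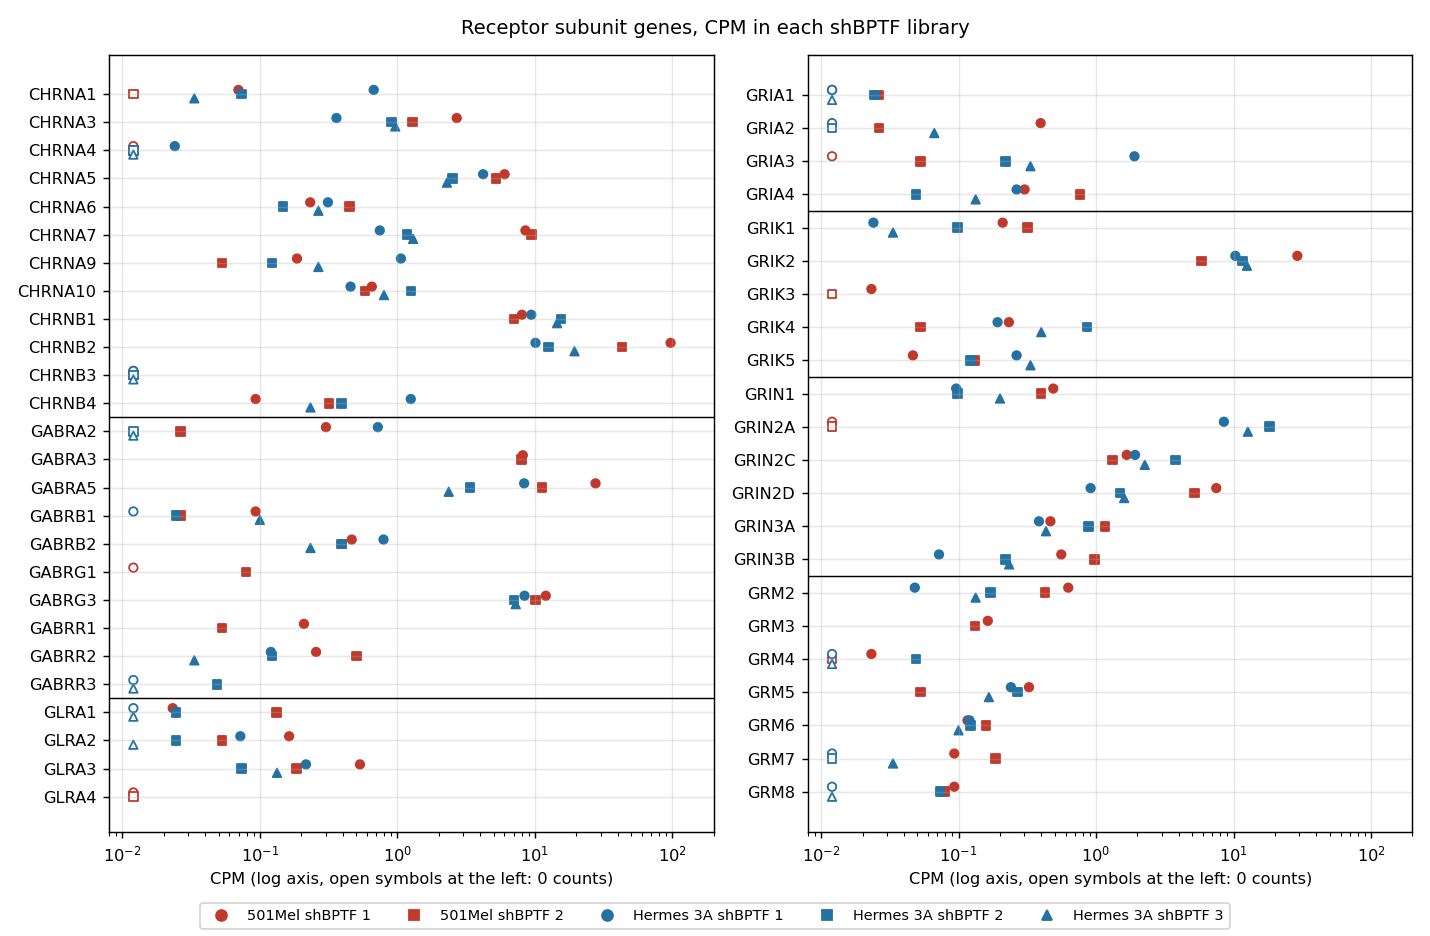
CPM of the receptor subunit genes reported here that have a row (horizontal log axis) in the 2 501Mel (red) and 3 Hermes 3A (blue) shBPTF libraries, with each symbol 1 library and open symbols at the left edge for 0 counts. GRIN2A lies at 0 counts in both 501Mel libraries and at 8.5 to 18.3 CPM in Hermes 3A cells, and the 501Mel libraries of CHRNB2 and CHRNA7 lie above all Hermes 3A libraries.

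Of the 29 tested genes, 10 differed between the lines at an adjusted p of 0.05 (edgeR's quasi-likelihood test with Benjamini-Hochberg adjustment over all genes). CHRNA7, CHRNB2, GRIN2D, GRM2, GRIN3B, GABRA5 and GRIN1 were higher in 501Mel cells. CHRNB1, GRIA3 and GRIN2A were higher in Hermes 3A cells. The lines differ widely across the transcriptome, and the same test called 48.4% of 17918 genes, 24.3% of them higher in 501Mel cells and 24.1% higher in Hermes 3A cells as shares of all tested genes. The members' 10 of 29 was not above that background. The tested members had a median log2 difference (501Mel over Hermes 3A, as throughout) of 0.46 with quartiles of -0.86 and 1.73, against 0.02 with quartiles of -0.76 and 0.81 for all genes. The libraries of the lines did not overlap for 17 of the 29, against 69.9% of all tested genes. In RNA from whole cultures, fewer cells expressing a gene and less of its RNA per cell cannot be told apart.

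**Figure D2:**
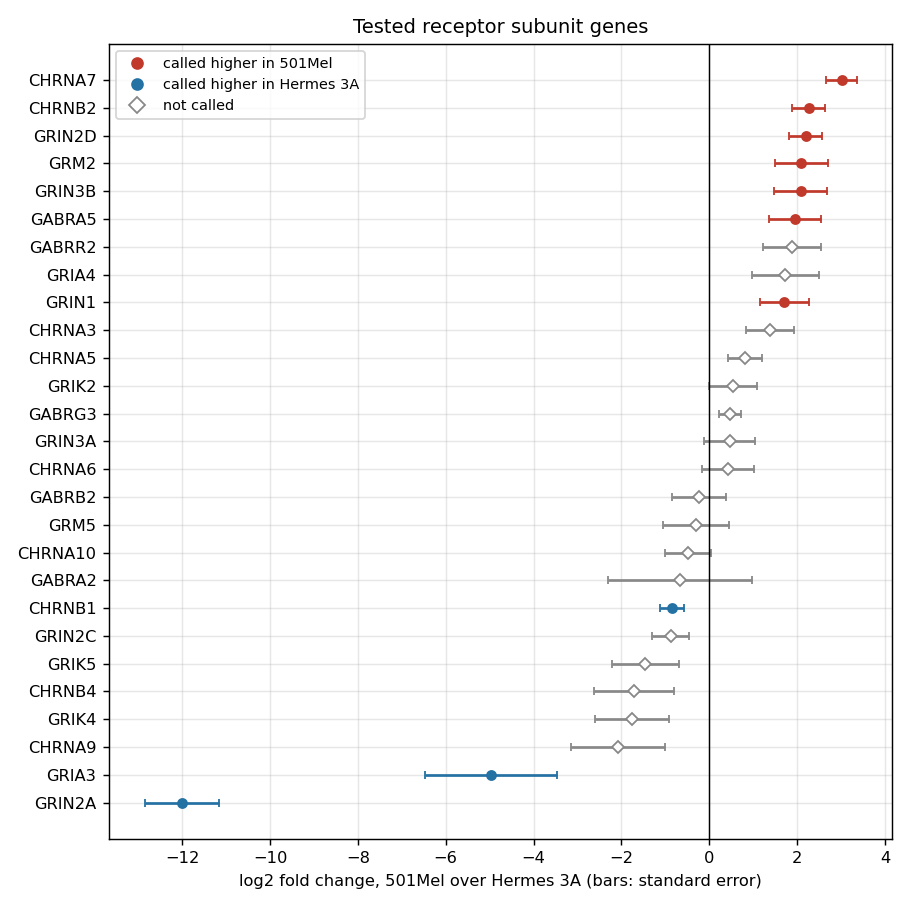
Log2 fold change (501Mel over Hermes 3A, horizontal axis) of 27 of the 29 tested receptor subunit genes from edgeR's quasi-likelihood fit, with standard error bars; filled red and blue points passed the adjusted p of 0.05 and open points did not. CHRNA7 is the highest at 3.01 and GRIN2A the lowest at -12.01, a fitted value that depends on the prior count because both 501Mel libraries had 0 counts.

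Of the nicotinic acetylcholine family, CHRNB2 had the highest level per kb in 501Mel cells. It encodes a β subunit that pairs with α subunits in neuronal receptors. CHRNB2 had 97.0 and 43.0 CPM in the 501Mel libraries and 10.1, 12.6 and 19.4 CPM in the Hermes 3A libraries. Both 501Mel libraries stood above all 3 of Hermes 3A, although they also differed 2.26-fold from each other. Mean levels were 70.0 ± 38.2 (SD, n = 2) and 14.0 ± 4.78 CPM (SD, n = 3), and CHRNB2 was 4.78-fold higher in 501Mel cells (log2 difference 2.26, SE 0.377, adjusted p = 0.00281). Without 501Mel replicate 1 the log2 difference was 1.56 (SE 0.348, adjusted p = 0.0183).

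CHRNA7 encodes the α7 subunit, which forms channels highly permeable to calcium on its own. It had 8.53 and 9.43 CPM in 501Mel cells and 0.744, 1.17 and 1.3 CPM in Hermes 3A cells. Its libraries did not overlap between lines and spread 1.11-fold in 501Mel cells and 1.74-fold in Hermes 3A cells. The gene was 8.06-fold higher in 501Mel cells (log2 difference 3.01, SE 0.348, adjusted p = 0.000615). CHRFAM7A, a fusion gene that holds a near-identical copy of part of CHRNA7, had 10 and 3 counts in 501Mel cells against 2, 10 and 6 in Hermes 3A cells. How reads shared by this pair were assigned is not given in the sources used here, so the level of CHRNA7 is uncertain to that extent.

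CHRNB1, the β subunit of the muscle receptor, had 8.04 and 7.03 CPM in 501Mel cells and 9.41, 15.5 and 14.5 CPM in Hermes 3A cells. All 3 Hermes 3A libraries were higher, replicate 1 only narrowly. The log2 difference was -0.86 (SE 0.274, adjusted p = 0.0356). The call was lost without 501Mel replicate 1 (adjusted p = 0.0924), without 501Mel replicate 2 (0.129), without Hermes 3A replicate 2 (0.11), without Hermes 3A replicate 3 (0.0997) and with replicate number as a block (0.115). An annotated gene on the same strand covers 14.6% of the CHRNB1 exon length. How reads of this pair were assigned is not given in the sources used here. CHRNA1, the muscle α subunit, had 0 to 28 counts in a library and was not tested. The other tested members of the family, CHRNA3, CHRNA5, CHRNA6, CHRNA9, CHRNA10 and CHRNB4, did not pass the test.

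CHRNA3 (116 and 49 counts against 15, 37 and 29), CHRNA5 (259 and 197 against 175, 103 and 69) and CHRNB4 (4 and 12 against 52, 16 and 7) lie side by side on chromosome 15 (GRCh38, 78565520 to 78727754) and encode subunits of the ganglionic receptor. For CHRNA3 and CHRNA5 the 501Mel libraries lay above those of Hermes 3A, with log2 differences of 1.38 (adjusted p = 0.0728) and 0.82 (adjusted p = 0.117). CHRNB4 overlapped between lines, with a log2 difference of -1.71 (adjusted p = 0.16). The exons of CHRNA3 and CHRNA5 overlap on opposite strands over 198 bases, and an annotated antisense gene covers 23.0% of the CHRNA5 exon length. The strand setting of the counting is not given in the sources used here, so reads of such pairs cannot be told apart.

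Among GABA-A subunits, GABRA5 and GABRG3, which encode an α and a γ subunit, were detected in every library of both lines. GABRA5 had 27.6 and 11.3 CPM in 501Mel cells and 8.35, 3.38 and 2.36 CPM in Hermes 3A cells. Within each line it was highest in replicate 1, and the lines did not overlap. The log2 difference of 1.95 (SE 0.598, adjusted p = 0.0308) was past the threshold. It fell to 1.18 without 501Mel replicate 1 (adjusted p = 0.225), 1.68 without Hermes 3A replicate 2 (adjusted p = 0.0891) and 1.58 without Hermes 3A replicate 3 (adjusted p = 0.0815), and was 2.7 without Hermes 3A replicate 1 (adjusted p = 0.00474). GABRG3, at 12.0 and 10.1 CPM against 8.4, 7.05 and 7.25 CPM, was higher in both 501Mel libraries by a log2 difference of 0.47, which did not pass (SE 0.249, adjusted p = 0.156). An annotated antisense gene covers 8.7% of its exon length.

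GABRA3, another α subunit, had a row in the 501Mel files only. It had 351 and 303 counts there (8.08 ± 0.108 CPM, SD, n = 2). No value in Hermes 3A cells and so no comparison was available. GABRB2, GABRA2, GABRB1 and GABRG1 had at most 33, 30, 4 and 3 counts in a library. GABRR2, a subunit of the ρ receptors first known from retina, had 11 and 19 counts in 501Mel cells against 5, 5 and 1 in Hermes 3A cells. Its log2 difference of 1.88 (SE 0.665, adjusted p = 0.051) was just outside the threshold. It was just inside with the stricter count filter (adjusted p = 0.0463) and with missing rows entered as 0 (0.048). It was further outside with no filter (0.0788), with replicate number as a block (0.15) and with DESeq2 (0.165). The log2 difference was 2.3 without 501Mel replicate 1 and 1.3 without 501Mel replicate 2.

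The NMDA subunits differed in their composition. GRIN2A, which encodes the GluN2A subunit of adult forebrain receptors, had 0 counts in both 501Mel libraries. In Hermes 3A cells it had 354, 748 and 381 counts, or 8.5, 18.3 and 12.7 CPM (13.2 ± 4.92, SD, n = 3). Taking 3 counts per library as the floor, GRIN2A was at least 177-fold higher in Hermes 3A cells (adjusted p = 0.000179), and 32 of the 17918 tested genes (0.179%) differed by as large a fitted value. GRIN2A stayed past the threshold under all 13 alternatives.

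GRIN2D, which encodes a GluN2 subunit found early in brain development, had 7.48 and 5.2 CPM in 501Mel cells. Its 3 Hermes 3A libraries lay lower, at 0.912, 1.49 and 1.6 CPM. GRIN2D was 4.57-fold higher in 501Mel cells (log2 difference 2.19, SE 0.377, adjusted p = 0.00314), also under all 13 alternatives. GRIN2C, at 1.67 and 1.32 CPM against 1.92, 3.77 and 2.26 CPM, was lower in both 501Mel libraries, and its log2 difference of -0.88 did not pass the test (SE 0.424, adjusted p = 0.126). GRIN3A overlapped between lines (log2 difference 0.46, adjusted p = 0.546).

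The obligatory subunit GRIN1 was low in both lines, with 21 and 15 counts in 501Mel cells against 4, 4 and 6 in Hermes 3A cells. The GRIN3B subunit had 24 and 37 counts against 3, 9 and 7. Both were higher in all 501Mel libraries, with log2 differences of 1.71 for GRIN1 (SE 0.552, adjusted p = 0.0371) and 2.08 for GRIN3B (SE 0.598, adjusted p = 0.0242). Neither call was stable at these counts. GRIN3B missed the threshold without 501Mel replicate 1 (adjusted p = 0.0534) and without 501Mel replicate 2 (0.18). GRIN1 missed it without either 501Mel library (0.204 without replicate 1, 0.131 without replicate 2) and without Hermes 3A replicates 1 (0.0619) or 2 (0.109), as well as with the replicate block (0.0538), with no filter (0.0781) and with DESeq2 (0.147).

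**Figure D3:**
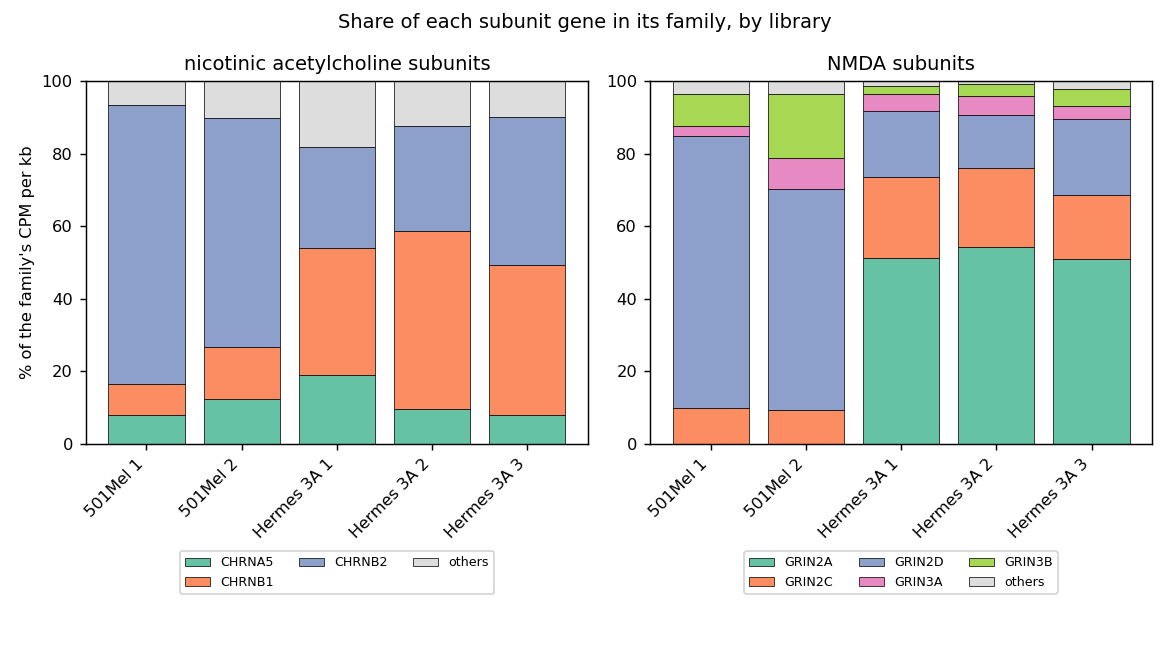
Share of each subunit gene in the summed CPM per kb of exon of its family (vertical axis, %), 1 bar per shBPTF library, for nicotinic acetylcholine (left) and NMDA subunits (right). CHRNB2 and GRIN2D take most of their families in both 501Mel libraries, and GRIN2A takes 50.9% to 54.3% of the NMDA subunits in Hermes 3A cells and none in 501Mel cells.

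Per kb of exon, GRIN2D made up 74.8% and 61.0% of the NMDA subunit level in the 501Mel libraries and 18.0%, 14.5% and 21.0% in the Hermes 3A libraries. GRIN2A made up 51.1%, 54.3% and 50.9% in Hermes 3A cells. GRIN2D thus led in one line and GRIN2A in the other. Of the nicotinic subunit level, CHRNB2 made up 77.0% and 63.2% in 501Mel cells against 27.8%, 29.2% and 40.7% in Hermes 3A cells, where CHRNB1 took 35.2%, 49.0% and 41.5%. The shares rest on exon lengths of GENCODE 29, since the annotation used for counting is not given in the sources used here. These lengths merge all annotated exons of a gene, and shares by transcript length are not given here. The merged length was 20978 bases for CHRNA7, whose longest transcript has 7722, but 5892 for CHRNB2, whose longest has 5867. The shares therefore depend on the length chosen, and that of CHRNA7 would be larger by longest transcript.

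AMPA and kainate subunits contributed little apart from GRIK2. GRIA3, an AMPA subunit, had 0 and 2 counts in 501Mel cells against 79, 9 and 10 in Hermes 3A cells. All Hermes 3A libraries were higher, replicate 1 by far. Over all libraries of a line, 98 counts against 2 gave a ratio of 35.2 per count sequenced (exact Clopper-Pearson 95% interval 9.49 to 295, which covers counting error only). The log2 difference of -4.97 (SE 1.51, adjusted p = 0.0299) passed the test, and the call was lost without 501Mel replicate 1 (-3.97, adjusted p = 0.146) and without 501Mel replicate 2 (-8.07, adjusted p = 0.0649). Without Hermes 3A replicate 1, which holds 79 of its 98 counts in that line, without Hermes 3A replicate 3 and with the stricter count filter, GRIA3 had too few counts to be tested. GRIA4, at 13 and 29 counts against 11, 2 and 4, did not pass (log2 difference 1.73, adjusted p = 0.0976), and GRIA1 and GRIA2 had at most 1 and 17 counts in a library.

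GRIK2, a kainate subunit, had 29.1 and 5.86 CPM in 501Mel cells and 10.3, 11.6 and 12.5 CPM in Hermes 3A cells. The 501Mel libraries fell on either side of those of Hermes 3A and differed 4.97-fold from each other, the widest spread of any detected member. The log2 difference was 0.54 (SE 0.555, adjusted p = 0.45). It was -1.02 without 501Mel replicate 1 (SE 0.305, adjusted p = 0.046) and 1.26 without 501Mel replicate 2 (SE 0.238, adjusted p = 0.00898), so that its direction rested on 1 library. GRIK2 nevertheless made up 87.7% to 97.7% of the kainate subunit level per kb in every library. GRIK4 and GRIK5, with at most 35 and 11 counts in a library, had log2 differences of -1.76 (adjusted p = 0.123) and -1.46 (adjusted p = 0.152). Thus 0 of the 3 tested kainate genes were called by edgeR's quasi-likelihood test, 0 by DESeq2, and 0 at an unadjusted p of 0.05.

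Among the metabotropic receptors, GRM2, which inhibits adenylyl cyclase, had 27 and 16 counts in 501Mel cells against 2, 7 and 4 in Hermes 3A cells. Both 501Mel libraries were higher, with a log2 difference of 2.09 (SE 0.601, adjusted p = 0.0242). This call was lost without 501Mel replicate 1 (adjusted p = 0.172), 501Mel replicate 2 (0.0729) or Hermes 3A replicate 3 (0.0515), with the replicate block (0.0603) and with DESeq2 (0.0742). GRM5, which signals to phospholipase C, was low at 2 to 14 counts (log2 difference -0.31, adjusted p = 0.758), and an antisense gene covers 50.4% of its exon length. GRM3, GRM4, GRM6, GRM7 and GRM8 had at most 7 counts in a library.

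The glycine receptor subunit genes among the members, all GLRA genes, did not reach detection in either line. GLRA3 was the highest, with 23 and 7 counts in 501Mel cells against 9, 3 and 4 in Hermes 3A cells, and GLRA1 and GLRA2 had at most 5 and 7 counts. GLRA4 had 0 counts in both 501Mel libraries and no row in the Hermes 3A files. None of these 4 genes was tested. GLRB, the glycine receptor β subunit outside the symbol rule, was detected in both lines. It had 107 and 67 counts in 501Mel cells against 331, 105 and 98 in Hermes 3A cells. Its log2 difference of -1.2 did not pass edgeR's test (SE 0.579, adjusted p = 0.126).

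Ranked by CPM per kb of exon among the members reported here, the order in 501Mel cells was CHRNB2 (11.9 ± 6.48, SD), GABRA5 (4.68 ± 2.79), GRIK2 (2.31 ± 2.17) and GABRA3 (1.93 ± 0.0258, each n = 2). In Hermes 3A cells it was CHRNB1 (3.04 ± 0.755), CHRNB2 (2.38 ± 0.811), GRIK2 (1.51 ± 0.151) and GABRA5 (1.13 ± 0.772, each n = 3). In both lists the mean ± SD of each gene overlapped that of the next, so that neighbours did not differ beyond their spread. CHRNB2, GABRA5 and GRIK2 were among the first 4 in both lines. The first place depended on the length used, and with the median transcript length GABRA5 led in 501Mel cells (29.9 CPM per kb) and GRIN2A in Hermes 3A cells (11.5).

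Replicates varied as widely as some differences between lines. For the 23 genes detected in 501Mel cells the higher library was a median of 1.44-fold above the lower (range 1.02 to 4.97), and 17 of the 23 were higher in replicate 1. For the 15 genes detected in Hermes 3A cells the highest library was a median of 1.91-fold above the lowest (range 1.19 to 3.54). GABRA3 and CHRNA7 were the steadiest in 501Mel cells, at 1.02-fold and 1.11-fold. Of the tested members, 14 had under 50 counts in every library.

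A list of 10 genes for subunits of the same families outside the symbol rule included CHRND, CHRNE, CHRNG, GABRD, GABRE, GABRP, GABRQ and GLRB. Of these, 4 were tested and 2 were higher in 501Mel cells. Over all tested genes 24.3% were called higher in 501Mel cells and 24.1% higher in Hermes 3A cells. Neither this list nor those below were tested as sets against that background. GABRP, the π subunit of the GABA-A receptor, had 5.3 and 17.5 CPM in 501Mel cells against 0.312, 0.171 and 0 CPM in Hermes 3A cells (log2 difference 5.97, SE 0.918, adjusted p = 0.00199). Its value ranged widely with the libraries, from 4.84 without 501Mel replicate 2 (adjusted p = 0.0103) to 6.82 without Hermes 3A replicate 1 (adjusted p = 0.00317).

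A list of 20 genes held other transmitter receptors (the HTR3 serotonin, P2RX purine, ZACN, GABA-B and muscarinic receptors). Of these, 10 were tested, 1 was higher in 501Mel cells against 3 in Hermes 3A cells, with a median log2 difference of -0.58. The shares over all genes were 24.3% and 24.1%, and their median was 0.02. P2RX7, an ATP-gated channel, was the highest of them in Hermes 3A cells by CPM, at 53.2, 178 and 232 against 13.4 and 7.05 in 501Mel cells (log2 difference -3.96, SE 0.649, adjusted p = 0.00258). P2RX5 was also lower in 501Mel cells, where its libraries held 83 and 4 counts against 492, 413 and 376 (log2 difference -3.55, adjusted p = 0.0159; -6.78 without 501Mel replicate 1, adjusted p = 0.000563; -2.66 without replicate 2, adjusted p = 0.00328). ZACN, a zinc-activated channel, was called at 3 and 5 counts against 9, 28 and 15 (log2 difference -2.23, adjusted p = 0.0353), and not without 501Mel replicate 1 (0.203), without 501Mel replicate 2 (0.094), with the block (0.056) or with DESeq2 (0.0579). Without Hermes 3A replicate 2 or 3 and with the stricter count filter ZACN had too few counts to be tested. P2RX2, at 23 and 13 counts against 0, 1 and 0, was higher in 501Mel cells (log2 difference 5.14, adjusted p = 0.00329; 7.01 without Hermes 3A replicate 2, adjusted p = 0.00882), but had too few counts to be tested without 501Mel replicate 1. Over all libraries of a line, 36 counts against 1 gave a ratio of 50.1 (exact 95% interval 8.44 to 2030, counting error only).

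Genes that assemble, modulate or anchor these receptors differed in both directions. Of 39 such genes, 27 were tested. Of the 27, 12 were higher in Hermes 3A cells, 4 were higher in 501Mel cells and 11 were not called, with a median log2 difference of -0.75. Among all genes, 24.1% were called higher in Hermes 3A cells and 24.3% in 501Mel cells, with a median of 0.02. LYPD1 and LYNX1 encode Ly6 proteins that bind nicotinic receptors. LYPD1 had 8 and 1 counts (0.186 and 0.0264 CPM) in 501Mel cells against 229, 276 and 295 CPM in Hermes 3A cells (log2 difference -11.25, SE 0.432, adjusted p = 1.2e-05; -13.18 without 501Mel replicate 1, adjusted p = 8.3e-05, and -10.55 without replicate 2, adjusted p = 6.01e-05). LYNX1 had 0.163 and 0.185 CPM against 9.68, 19.0 and 23.3 CPM (log2 difference -6.67, SE 0.535, adjusted p = 0.000142).

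SHANK3, a scaffold of glutamate synapses, had 0.139 and 0.185 CPM in 501Mel cells against 25.3, 32.2 and 30.0 CPM in Hermes 3A cells (log2 difference -7.53, SE 0.305, adjusted p = 1.44e-05). Higher in 501Mel cells were HOMER2, which binds group I metabotropic receptors, LYPD6, a Ly6 protein, and CNIH2, an AMPA receptor auxiliary subunit. HOMER2 had 25.7 and 6.84 CPM against 1.2, 2.47 and 2.66 CPM (log2 difference 2.89, SE 0.575, adjusted p = 0.00569; 1.65 without 501Mel replicate 1, adjusted p = 0.0487, and 3.53 without replicate 2, adjusted p = 0.00169). LYPD6 (log2 difference 1.9, adjusted p = 0.0254) ceased to pass without 501Mel replicate 1 (0.105), 501Mel replicate 2 (0.0585), Hermes 3A replicate 2 (0.0626) or Hermes 3A replicate 3 (0.0891), and reached 2.54 without Hermes 3A replicate 1 (0.00459). CNIH2 (log2 difference 1.64, adjusted p = 0.0168) ceased to pass without 501Mel replicate 1 (0.113), Hermes 3A replicate 2 (0.0557) or Hermes 3A replicate 3 (0.0637) and with the block (0.0557).

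**Figure D4:**
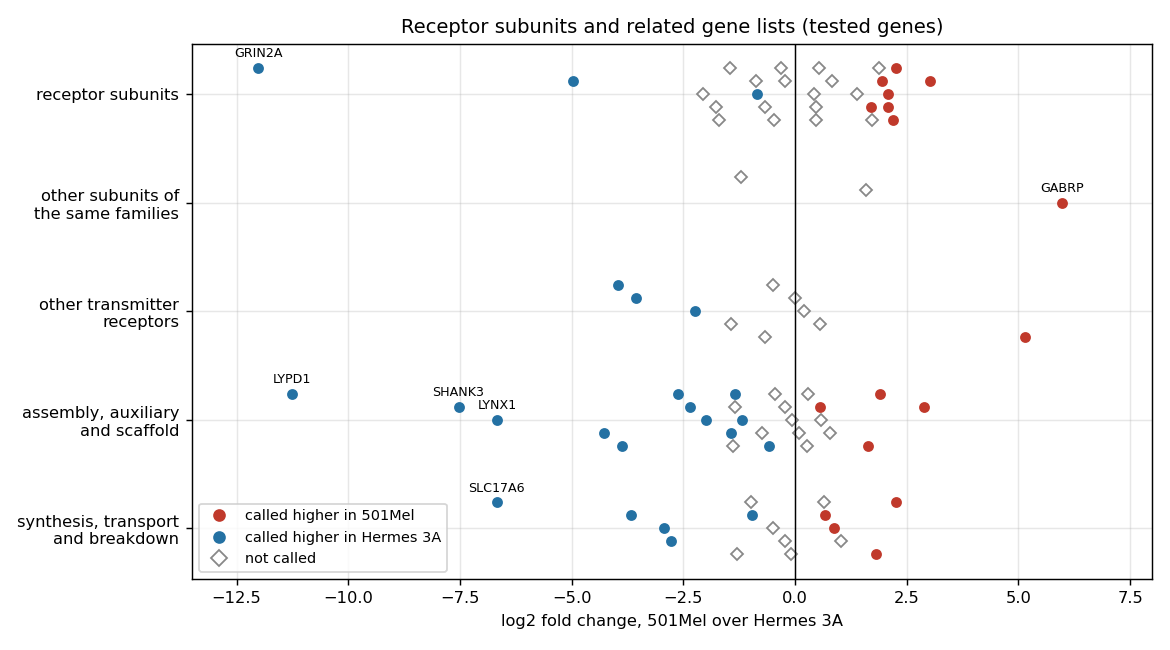
Log2 fold change (501Mel over Hermes 3A, horizontal axis) of the tested genes reported here among the receptor subunits and the 4 related lists, 1 symbol per gene, filled where the adjusted p passed 0.05; vertical offsets within a row only separate the symbols. In the assembly, auxiliary and scaffold list 12 of 27 tested genes are past the threshold on the Hermes 3A side and 4 on the 501Mel side. Of all tested genes 24.1% and 24.3% are.

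Genes for the synthesis, transport and breakdown of the transmitters were split. Of 28, 16 were tested. Of the 16, 4 were higher in 501Mel cells, 5 were higher in Hermes 3A cells and 7 were not called, with a median log2 difference of -0.36. The background over all genes was 24.3% and 24.1% in these directions, with a median of 0.02. Hermes 3A cells had more of SLC17A6, a vesicular glutamate transporter, at 10.3, 6.83 and 16.3 CPM against 0.116 and 0.106 CPM (log2 difference -6.68, SE 0.599, adjusted p = 0.000226). They also had more of GAD1, which makes GABA (log2 difference -3.68, SE 0.42, adjusted p = 0.000584), and of ABAT, which breaks it down (log2 difference -2.94, SE 0.286, adjusted p = 0.000307). GLUL, glutamine synthetase, was higher in 501Mel cells at 267 and 378 CPM against 75.0, 97.6 and 90.4 CPM (log2 difference 1.82, SE 0.187, adjusted p = 0.000383).

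The glutamate transporter SLC1A3 had 48.6 and 6.84 CPM in 501Mel cells and 3.17, 7.12 and 6.22 CPM in Hermes 3A cells, so that the lines overlapped. Its log2 difference of 2.27 (SE 0.708, adjusted p = 0.0327) rested on 501Mel replicate 1, without which it was 0.26 (adjusted p = 0.701), and was 3.07 without 501Mel replicate 2 (adjusted p = 0.00197). It also missed the threshold without Hermes 3A replicate 1 (0.0823), 2 (0.0554) or 3 (0.0731) and with the block (0.115). BCHE, which hydrolyses choline esters, was higher in both 501Mel libraries (log2 difference 0.87, SE 0.241, adjusted p = 0.0207), but not past the threshold without 501Mel replicate 1 (0.46, adjusted p = 0.182) or without Hermes 3A replicate 2 (adjusted p = 0.0539).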

How the data were processed

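Total RNA was depleted of ribosomal RNA, treated with duplex-specific nuclease, which evens out abundant and rare fragments before amplification, and sequenced. The authors deposited raw read counts per Ensembl gene, 1 file per library, without normalization, and the submitters' processing notes name CASAVA 1.8, TopHat 1.4.1, Bowtie 0.12.7 and hg19. The counting program, annotation and strand setting are not given in the sources used here. Libraries were grouped by line from their labels. The 2 lines' files list 37259 and 34033 genes, of which 31029 are shared and entered the test. Symbols, lengths and positions came from GENCODE 29 (GRCh38).

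Counts were compared with edgeR 4.0.16 (TMM, filterByExpr, quasi-likelihood test, R 4.3.3), without covariates, with calls at an adjusted p of 0.05 (Benjamini-Hochberg) over all 17918 genes tested, and SE was taken from the log2 difference and F. CPM used whole library totals of 30073071 to 43032311 counts. Counting error alone covers the floor of 3 counts. Between replicates, chi-square per gene was 21.5 to 101, far above counting noise, and no libraries were merged. Named genes were CHRNB2, every called member, the 5 highest per kb in each line, members with 10 or more counts throughout 1 line and fewer throughout the other, and up to 3 called genes in each direction of each related list. Some members and list genes, and the glial markers, are not reported here by name, though counts over members include them. Other members named for completeness were chosen after their values were seen. The members and lists were chosen with earlier results of these data known. The scripts were tested on simulated data. Alternatives were other size factors, DESeq2 1.42.0, other count filters, a fold threshold, a replicate block, leaving out each library and other lengths and, chosen after seeing the data, missing rows as 0 and library sizes over shared genes.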

Additional observations from a re-analysis of the deposited data

Results flagged for a closer look

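GABRA3 and GRM3 had counts in the 501Mel libraries and no row in the Hermes 3A files, so that they stayed outside the test between lines. GABRA3 averaged 8.08 CPM and GRM3 0.147 CPM (7 and 5 counts) over the 2 libraries, each above the 3 counts per library that a count of 0 allows. With missing rows entered as 0, an alternative chosen after seeing the data, the fitted log2 difference was 11.25 for GABRA3 (edgeR, adjusted p = 0.000292), a value that depends on the prior count. Whether a missing row means 0 counts in Hermes 3A cells was not tested.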

How the results depend on the processing

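CHRNB2, CHRNA7, GRIN2A and GRIN2D kept their direction and stayed past the threshold under each of 13 alternatives, with log2 differences of 1.56 to 2.71, 2.81 to 3.19, -12.23 to -11.56 and 1.91 to 2.41. Leaving out each library in turn, 3 to 9 members were higher in 501Mel cells (7 with all libraries) and 1 to 3 higher in Hermes 3A cells (3), while 2871 to 4595 and 3233 to 4687 of all genes were called. Members higher in 501Mel cells were fewest without 501Mel replicate 1. There the lone 501Mel library is assumed to vary like the Hermes 3A libraries. Members higher in Hermes 3A cells were fewest without 501Mel replicate 2 or Hermes 3A replicate 3. Over all genes, both directions were lowest without 501Mel replicate 1. GRIK2 reversed without 501Mel replicate 1 (-1.02) and was 1.26 without replicate 2. Members detected in 501Mel cells were 13 at 1 CPM or more in every library. In Hermes 3A cells they were 9 by that rule and 27 at 3 counts or more. By median transcript length the highest member reported here was GABRA5 in 501Mel cells, at 29.9 CPM per kb, and GRIN2A in Hermes 3A cells, at 11.5, and by longest transcript it was still CHRNB1 in Hermes 3A cells, at 5.14. DESeq2 called 5 and 3 members (4257 and 4623 of all genes), and entering missing rows as 0 called 10 and 3 (4558 and 4615). The cause of these changes was not tested. Same-numbered libraries of the 2 lines correlated in their deviations at r = 0.101 and 0.116, but only 2 pairs exist and the lines differ, so they share only a number. With the replicate block 6 and 2 members were called, and 3641 and 3855 of all genes. Depth limits 14 of the 29 tested members, which had under 50 counts in every library.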
